A study of Mus musculus with 14 samples.

Results

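Mouse hepatocellular carcinoma cells lacking ACLY, ACSS2 or both were compared for 38 genes of peroxisomal lipid oxidation and peroxisome assembly. The genes were chosen by symbol from the deposited table of 24972 genes, with earlier results of these data known, and all 38 were present. They comprised 13 oxidation enzymes, 3 nudix CoA diphosphatases, catalase, 3 ABCD transporters, 1 membrane cofactor carrier, 4 ether lipid enzymes and 13 peroxins. Of these, 35 had a mean of at least 10 normalized read counts and were tested, whereas Ehhadh, Acaa1b and Abcd2 lay under that limit and are given by their values.

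Poly(A) RNA was sequenced from cells grown for 24 hours in DMEM with 10% serum, in 14 libraries, 4 each of WT and ACLY KO and 3 each of ACSS2 KO and DKO1. All cells came from an Acly f/f line made from diethylnitrosamine-induced liver tumors and carried a LentiCRISPR v2 vector. WT and ACLY KO cells were bulk populations with the empty vector, and the ACLY KO cells went back to a single-cell clonal population made with adenoviral Cre recombinase. ACSS2 KO (Acly intact) and DKO1 (Acly also deleted) were single-cell clones that had received a guide RNA to the first exon of Acss2, so clone and genotype cannot be told apart. The labels do not say that libraries of a genotype came from separate cultures, and p-values then measure only the spread between these libraries. Values are listed below by replicate number, 1 to 4 in WT and ACLY KO, 1, 2 and 4 in ACSS2 KO and 1, 3 and 4 in DKO1.

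ACLY makes cytosolic acetyl-CoA from citrate and ACSS2 makes it from acetate. Peroxisomes shorten very long, branched and unusual fatty acids by beta-oxidation and alpha-oxidation, releasing acetyl-CoA or propionyl-CoA and hydrogen peroxide, and they host the first steps of ether lipid synthesis. ABCD transporters bring the acyl-CoAs in, and peroxins build the organelle by inserting its membrane proteins, importing its enzymes from the cytosol and dividing it. A change limited to enzymes therefore differs in kind from one that also involves the peroxins, and the genes are described below in that order.

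Library totals ran from 23565707 to 26946164 normalized counts. WT replicate 2, ACLY KO replicate 4, ACSS2 KO replicate 1 and DKO1 replicate 4 stood apart from their groups, with relatively more signal from genes of short transcripts (Spearman's rho of the deviation from the group mean against transcript length, across 12577 genes, -0.582, -0.568, -0.522 and -0.669). Acly had 6052, 5461, 6435 and 6251 in WT, 1084, 971, 984 and 965 in ACLY KO, 5542, 5748 and 5762 in ACSS2 KO and 956, 949 and 931 in DKO1. Acss2 had 239, 252, 233 and 224 in WT, 787, 660.4, 739 and 685 in ACLY KO, 127, 135 and 135 in ACSS2 KO and 578, 571 and 455 in DKO1 and was higher in DKO1 than in WT. A mutation made by a guide need not lower the RNA, so this measurement does not check the loss of ACSS2 in DKO1. Of 12 hepatocyte markers listed, 11 were in the table and Apoa1 and Serpina1a had a mean under 10 in every genotype, while Krt8 and Krt18, with WT means of 26051 and 27537, made up most of the summed level. That level was 48146 to 65088 in WT, 34802 to 37966 in ACLY KO, 41063 to 44036 in ACSS2 KO and 26361 to 45333 in DKO1. Hnf4a, a hepatocyte transcription factor, was lower than WT in all 3 knockouts, by limma at -2.59 ± 0.23 (adjusted p = 8e-07) in ACLY KO, -2.10 ± 0.25 (adjusted p = 3.9e-05) in ACSS2 KO and -2.90 ± 0.25 (adjusted p = 5.5e-07) in DKO1 on the log2 scale. Other hepatocyte markers went different ways against WT, with an adjusted p under 0.05 for each value given here. Afp was at 1.82 in ACLY KO and 2.41 in DKO1, and Alb at 2.06 in ACSS2 KO and -1.46 in DKO1. Apoa2 was at 1.47 in ACLY KO and 1.33 in DKO1, and Apob at -1.79 in ACSS2 KO and 1.16 in DKO1. Krt18 was at -0.66 in ACLY KO and -0.92 in DKO1. The 5 cholangiocyte or progenitor markers summed to 35800 to 48433 in WT, 30250 to 32241 in ACLY KO, 40073 to 43264 in ACSS2 KO and 44275 to 70631 in DKO1. The higher sum in DKO1 came from Spp1, with a mean of 14930 in WT and 40611 in DKO1. By limma, Krt19 (-1.17, adjusted p = 0.00031), Krt7 (-0.70, adjusted p = 0.00074) and Sox9 (-0.60, adjusted p = 0.0011) were lower in DKO1 than in WT. Epcam was not called in that comparison. The summed level of 5 fibroblast markers was 618 to 729 in WT, 2933 to 3297 in ACLY KO, 1431 to 1487 in ACSS2 KO and 1225 to 1514 in DKO1. Different genes made up most of each rise. Mean Col1a1 went from 428 in WT to 2454 in ACLY KO, Dcn from 154 to 820 in ACSS2 KO and Col3a1 from 80.6 to 587 in DKO1. By limma, Col1a1 and Dcn were not called in DKO1 against WT. The sum of 4 endothelial markers was 18.6 to 28.3 in WT, 77.1 to 92.3 in ACLY KO, 10.5 to 18.3 in ACSS2 KO and 40.2 to 51.2 in DKO1. These markers went different ways, with means in WT, ACLY KO and DKO1 of 7.51, 61.7 and 37.7 for Pecam1. Cdh5 had 1.54, 18.9 and 6.63, whereas Kdr had 12.9, 2.21 and 2.05, and Tek was under 10 in every genotype. The sum of 5 leukocyte markers was 40.9 to 79.7 in WT, 62.7 to 100.03 in ACLY KO, 26.3 to 52.6 in ACSS2 KO and 83.8 to 131 in DKO1. Of these, Adgre1, Cd3e and Cd79a were under 10 in every genotype. The part of these cell type markers in the results was not tested.

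Most oxidation enzymes rose in each knockout, and fewer of the peroxins did. Phyh, Hacl1, Acox2, Acox3, Ech1 and the peroxin Pex13 were higher than WT in all 3 knockouts, the racemase Amacr and the transporter Abcd3 were higher in ACLY KO and DKO1 but not called in ACSS2 KO, and the peroxins Pex7 and Pex14 were called in DKO1 and in neither single knockout. The ether lipid enzymes Gnpat and Far1 rose in ACLY KO, and Nudt7, which degrades CoA, fell in DKO1. Expression was compared with limma on log2(value + 1), so that the change of low genes is understated, with Benjamini-Hochberg adjustment over all 12711 genes tested and a call at an adjusted p under 0.05. In DKO1 against WT, 18 of the 35 tested genes were higher and 1 was lower, beside 27.9% of all tested genes higher and 28.1% lower. ACLY KO against WT gave 18 higher and 1 lower, beside 23.8% and 24.7% of all genes. In ACSS2 KO against WT, 9 were higher and none of the 35 was lower, beside 15.1% and 11.0%. These 3 comparisons share the WT libraries. Without WT replicate 4, the calls in ACLY KO came to 12 in place of 19. Over all genes 2773 were then higher and 2934 lower, in place of 3023 and 3144.

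By role, 8 of 11 tested oxidation enzymes rose in DKO1 against WT with a median log2 fold change of 0.86, whereas 7 of 13 peroxins rose with a median of 0.31 and 0 of 4 ether lipid enzymes changed, with a median of 0.04. Over all genes the median was 0.00350, with 27.9% higher and 28.1% lower. The oxidation enzymes had medians of 0.43 in ACLY KO and 0.45 in ACSS2 KO, with 8 and 6 of 11 higher. Medians of the peroxins were 0.19 and 0.04, with 5 and 3 of 13 higher. These counts stand beside 23.8% of all genes higher in ACLY KO and 15.1% in ACSS2 KO. Without DKO1 replicate 4 the DKO1 medians were 0.61 for the oxidation enzymes and 0.27 for the peroxins, with 8 and 7 genes higher and Pecr and Pex2 lower. That fit called 3855 of all 12711 genes higher and 3942 lower. Without the 4 libraries that stand apart, 21 of the 35 genes were higher and 3 lower, and the medians were 0.66 and 0.27. Calls over all 12711 genes rose as well there, from 3550 to 4469 higher and from 3573 to 4614 lower. The peroxin median was between 0.45 and 0.47 when WT replicate 2, DKO1 replicate 1 or DKO1 replicate 3 was left out. Leaving out the 4 libraries also raised the calls in ACSS2 KO against WT from 9 to 17. Over all 12711 genes, those higher in this comparison went from 1914 to 3052 and those lower from 1397 to 3055. The oxidation enzymes therefore had the larger median in all 3 comparisons with WT, a difference between lists that was not tested.

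**Figure D1:**
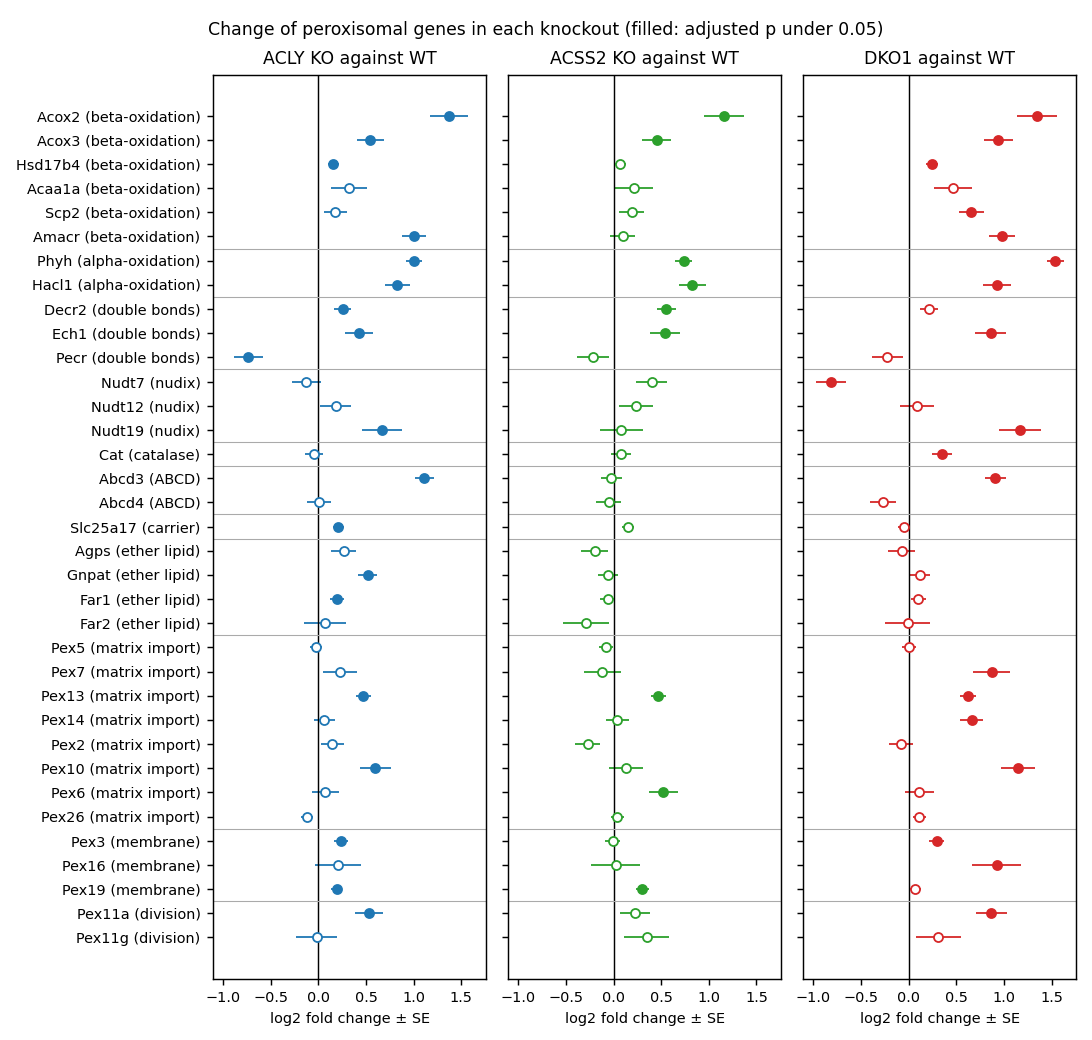
Log2 fold change ± SE against WT (horizontal axis) of each of the 35 tested genes (vertical axis, with its role) in ACLY KO, ACSS2 KO and DKO1, each with 4 WT libraries as reference. Filled points passed an adjusted p of 0.05. Most oxidation enzymes lie right of 0 in all 3 panels. Abcd3 and Amacr are filled points right of 0 in ACLY KO and DKO1 and open points in ACSS2 KO. Nudt7 is the filled point left of 0 in DKO1.

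**Figure D2:**
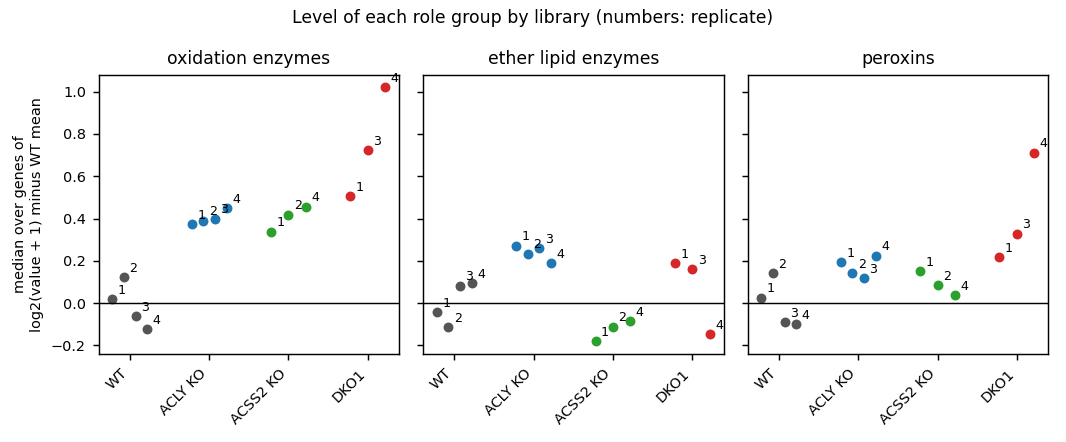
Median over the tested genes of a role group (11 oxidation enzymes, 4 ether lipid enzymes, 13 peroxins) of log2(normalized count + 1) minus the WT mean, for each of 14 libraries, with its replicate number. The oxidation enzymes lie above all WT libraries in every knockout library, and DKO1 replicate 4 is the highest point for both oxidation enzymes and peroxins.

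The promoters of 5 genes that stand for different patterns below are shown for reference: Phyh rose in every knockout, Abcd3 with ACLY loss, Pex14 and Pex10 are peroxins that were higher in DKO1, and Nudt7 was lower in DKO1. Each run is the 150 bases before the start site that RefSeq or GENCODE places furthest upstream, from the RefSeq windows of GRCm38.p6, read along the gene, with capitals marking a GC box (GGGCGG on either strand).
Phyh, chr2:4918846-4918995, plus strand: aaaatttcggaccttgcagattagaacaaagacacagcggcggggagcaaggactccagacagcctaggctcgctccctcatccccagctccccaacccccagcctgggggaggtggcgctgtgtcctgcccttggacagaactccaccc
Abcd3, chr3:121815303-121815452, minus strand: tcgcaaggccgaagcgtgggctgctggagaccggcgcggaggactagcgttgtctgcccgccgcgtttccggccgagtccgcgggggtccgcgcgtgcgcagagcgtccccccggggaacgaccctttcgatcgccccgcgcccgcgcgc
Pex14, chr4:149099877-149100026, minus strand: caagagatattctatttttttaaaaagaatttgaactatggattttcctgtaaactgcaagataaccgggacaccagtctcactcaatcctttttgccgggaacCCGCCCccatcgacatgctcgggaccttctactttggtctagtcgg
Pex10, chr4:155066866-155067015, plus strand: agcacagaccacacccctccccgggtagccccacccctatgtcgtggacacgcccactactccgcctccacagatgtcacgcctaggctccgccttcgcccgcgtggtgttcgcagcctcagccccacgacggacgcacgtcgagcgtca
Nudt7, chr8:114133407-114133556, plus strand: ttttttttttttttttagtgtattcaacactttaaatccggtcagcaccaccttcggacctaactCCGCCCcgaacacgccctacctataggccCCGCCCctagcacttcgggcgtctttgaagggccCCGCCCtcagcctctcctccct
RefSeq windows from 250 bases before to 50 after the start site matched 31 of the 38 genes, in 37 windows. Of the 5 runs, those of Pex14 and Nudt7 hold the GC box. It was found in 70.3% of these windows and in 35.7% of all 32851 windows. The half-site AGGTCA, to which PPARs and other nuclear receptors bind, occurred on either strand in 10.8% against 16.3% of all windows, in Cat, Pex11g, Phyh and Scp2. Its direct repeat, made of this half-site, any 1 base and the half-site again, was in 0 of the 37 windows and in 0.0396% of all, and TCAAGGTCA, which also contains it, was in 0 and 0.423%. CCAAT was in 37.8% against 37.4%, CACGTG in 2.7% against 7.15%, TGACGTCA in 5.41% against 1.79% and TATAAA in 8.11% against 13.6%, each on either strand.

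Both enzymes of alpha-oxidation, which removes a single carbon from phytanic and other branched fatty acids, rose in every knockout. Phyh, the phytanoyl-CoA hydroxylase that starts the pathway, lies at chr2:4919019-4938730 (GRCm38, GENCODE vM21). Its normalized read counts were 418, 463, 375 and 400.0 in WT, 808, 850.5, 812 and 846 in ACLY KO, 716, 639 and 717 in ACSS2 KO and 1091, 1159.5 and 1376 in DKO1. No WT library reached any knockout library, and all DKO1 libraries lay above those of both single knockouts. Phyh rose by a log2 fold change ± SE of 1.0 ± 0.08 (adjusted p = 5.1e-07) in ACLY KO, 0.74 ± 0.09 (adjusted p = 5.8e-05) in ACSS2 KO and 1.54 ± 0.09 (adjusted p = 2.2e-08) in DKO1, where all chromosome 2 genes had a median of 0.28. DKO1 exceeded ACLY KO by 0.54 ± 0.09 (adjusted p = 0.00078) and ACSS2 KO by 0.80 ± 0.10 (adjusted p = 1.4e-05), with a chromosome 2 median of 0.33 in the latter.

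Hacl1, the 2-hydroxyacyl-CoA lyase of the same pathway, had 76.2, 77.8, 67.2 and 51.5 in WT, 128, 113, 122 and 118 in ACLY KO, 106, 114 and 143 in ACSS2 KO and 122, 128 and 138 in DKO1. The WT values did not overlap those of any knockout, whereas the 3 knockouts overlapped one another. Its log2 fold change was 0.83 ± 0.13 (adjusted p = 0.00019) in ACLY KO, 0.83 ± 0.14 (adjusted p = 0.0009) in ACSS2 KO and 0.93 ± 0.14 (adjusted p = 0.00012) in DKO1, and chromosome 14, which carries Hacl1 and Acox2, had a median of 0.20 in ACSS2 KO against WT. DKO1 minus ACLY KO was 0.10 ± 0.14 (adjusted p = 0.63). Gm49387, annotated on the same strand, shares 58.2% of the exon bases of Hacl1, and how the authors' counting divided such reads is not given in the sources used here.

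**Figure D3:**
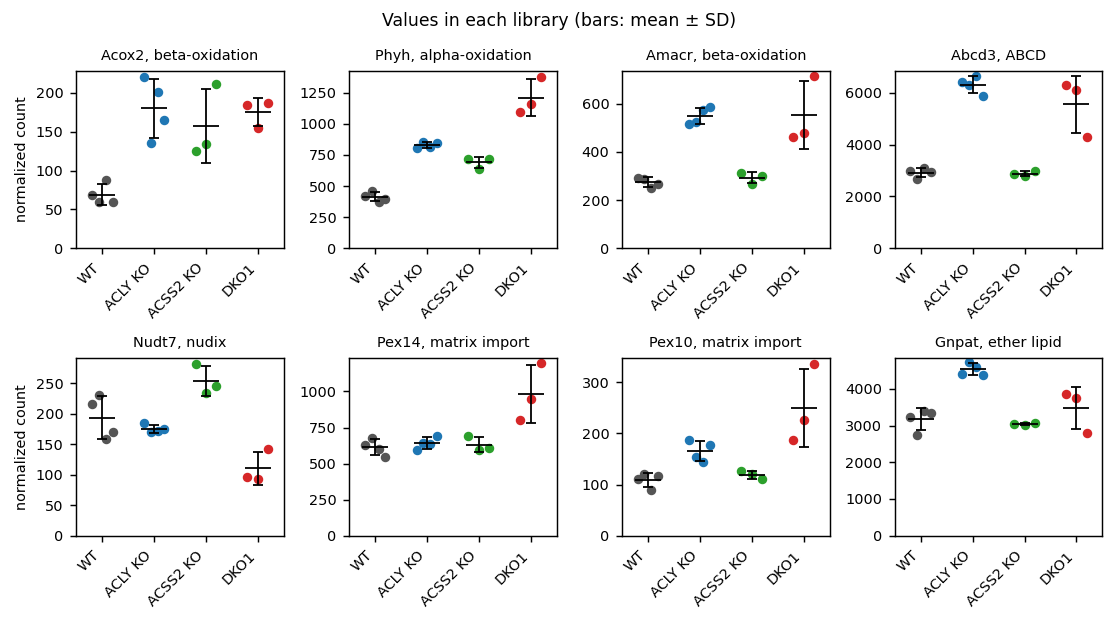
Normalized read count (vertical axis, from 0) of 8 genes in each library, by genotype, with bars for the mean ± SD (n = 4, 4, 3 and 3). Acox2 and Phyh are above WT in every knockout library, Amacr and Abcd3 in ACLY KO and DKO1, Pex14 and Pex10 have their highest mean in DKO1, Nudt7 its lowest, and Gnpat its highest in ACLY KO.

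Among the tested genes of beta-oxidation, the branched-chain oxidases and the racemase had the larger changes. Acox2, the oxidase for bile acid intermediates and branched acyl-CoAs, at chr14:8225511-8259353, had 68.4, 59.7, 87.8 and 59.2 in WT, 220.1, 135, 201 and 165 in ACLY KO, 126, 134 and 212 in ACSS2 KO and 185, 154 and 187 in DKO1. All knockout libraries lay above all WT libraries and the knockouts overlapped one another. It rose by 1.37 ± 0.20 (adjusted p = 6.4e-05) in ACLY KO, 1.16 ± 0.21 (adjusted p = 0.0012) in ACSS2 KO and 1.35 ± 0.21 (adjusted p = 0.00013) in DKO1, which is 2.59-, 2.23- and 2.55-fold. Against ACLY KO, DKO1 stood at -0.02 ± 0.21 (adjusted p = 0.96).

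Acox3, a second branched-chain acyl-CoA oxidase, had 253, 216, 281 and 227 in WT, 403, 319, 370.0 and 332 in ACLY KO, 308, 359 and 334 in ACSS2 KO and 539, 547 and 348 in DKO1. WT lay below every knockout library, and DKO1 replicates 1 and 3 lay above all others while DKO1 replicate 4 fell among the single knockouts. The rise was 0.54 ± 0.14 (adjusted p = 0.0065) in ACLY KO, 0.45 ± 0.15 (adjusted p = 0.046) in ACSS2 KO and 0.94 ± 0.15 (adjusted p = 0.00018) in DKO1. In ACSS2 KO the call was lost when any 1 of WT replicates 1, 2 and 4, ACLY KO replicates 1, 2, 3 and 4 and ACSS2 KO replicates 1, 2 and 4 was left out (log2 fold change 0.40 to 0.51, adjusted p = 0.051 to 0.16). DKO1 against ACLY KO gave 0.40 ± 0.15 (adjusted p = 0.071), which became 0.61 (adjusted p = 0.0015) when DKO1 replicate 4 was left out.

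Amacr, the racemase that converts branched acyl-CoAs to the form the oxidases accept, had 292, 289.7, 249.7 and 267 in WT, 517, 523, 573 and 585 in ACLY KO, 311, 266 and 302 in ACSS2 KO and 463, 479 and 714 in DKO1. ACLY KO and DKO1 lay above WT and ACSS2 KO without overlap, and WT and ACSS2 KO overlapped. It rose by 1.0 ± 0.12 (adjusted p = 1.8e-05) in ACLY KO, where the chromosome 15 median was 0.24, and by 0.98 ± 0.13 (adjusted p = 3.7e-05) in DKO1. ACSS2 KO was at 0.09 ± 0.13 (adjusted p = 0.67) against WT and DKO1 at -0.02 ± 0.13 (adjusted p = 0.93) against ACLY KO.

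Scp2, whose long product is the thiolase for branched chains and whose short product is a sterol carrier, had 1429, 1781, 1396 and 1347 in WT, 1608, 1726, 1557 and 1807 in ACLY KO, 1779, 1639.5 and 1655 in ACSS2 KO and 1974, 2145 and 2998 in DKO1. DKO1 was above the other 11 libraries, with replicate 4 far above the other two, and the single knockouts overlapped WT. It rose in DKO1 by 0.66 ± 0.13 (adjusted p = 0.00094) against WT and 0.48 ± 0.13 (adjusted p = 0.016) against ACLY KO, and by 0.30 (adjusted p = 0.038) against ACLY KO without DKO1 replicate 4. The single knockouts stood at 0.18 ± 0.12 (adjusted p = 0.26) and 0.19 ± 0.13 (adjusted p = 0.33).

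Hsd17b4, the multifunctional protein that carries out the hydratase and dehydrogenase steps, rose by less. Its values were 1991, 2218, 1949 and 1945 in WT, 2275, 2296, 2182 and 2261 in ACLY KO, 2202, 2043 and 2114 in ACSS2 KO and 2386, 2314 and 2486 in DKO1, with DKO1 above the other 3 genotypes. The log2 fold change was 0.24 ± 0.06 (adjusted p = 0.0039) in DKO1, with 0.24 (adjusted p = 0.057) in a fit of DKO1 and WT alone, and 0.16 ± 0.06 (adjusted p = 0.034) in ACLY KO, and the latter call was lost when any 1 of WT replicates 1, 3 and 4 and ACLY KO replicates 1, 2 and 4 was left out (log2 fold change 0.14 to 0.15, adjusted p = 0.07 to 0.093).

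The straight-chain thiolase Acaa1a did not pass the test in any comparison, with 0.47 ± 0.20 (adjusted p = 0.064) in DKO1 against WT. It ranged over 740.3 to 1088 in WT, 1029 to 1110.2 in ACLY KO, 919.5 to 1057 in ACSS2 KO and 887 to 1820.3 in DKO1, where replicate 4 was the highest. Its near-identical paralog Acaa1b had 0, 1.22, 0 and 1.16 in WT, 16.0, 9.47, 9.30 and 4.03 in ACLY KO, 2.25, 5.81 and 1.04 in ACSS2 KO and 8.39, 2.83 and 18.3 in DKO1, and reads shared between the 2 genes make both levels uncertain. Ehhadh, the other bifunctional enzyme, had 22.8, 3.42, 13.4 and 11.7 in WT, 1.19, 1.89, 2.57 and 0.831 in ACLY KO, 19.3, 16.4 and 15.7 in ACSS2 KO and 4.07, 3.87 and 1.15 in DKO1. Both were low, with means of 0.594, 9.69 and 9.85 for Acaa1b and 12.8, 1.62 and 3.03 for Ehhadh in WT, ACLY KO and DKO1. Ehhadh was under 5 in every ACLY KO and DKO1 library and over 10 in WT and ACSS2 KO except in WT replicate 2.

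The auxiliary enzymes that handle double bonds did not move together. Ech1, the dienoyl-CoA isomerase, had 761, 737, 602 and 621 in WT, 877, 899, 893 and 977 in ACLY KO, 1045, 905 and 1008 in ACSS2 KO and 962, 1117 and 1730.1 in DKO1. Every knockout library was above WT, and DKO1 replicate 4 was the highest of all. It rose by 0.86 ± 0.16 (adjusted p = 0.00051) in DKO1, 0.43 ± 0.15 (adjusted p = 0.029) in ACLY KO and 0.54 ± 0.16 (adjusted p = 0.024) in ACSS2 KO. The ACLY KO call was lost when any 1 of WT replicates 3 and 4 and ACLY KO replicates 2, 3 and 4 was left out (log2 fold change 0.37 to 0.44, adjusted p = 0.052 to 0.082) and the ACSS2 KO call when any 1 of WT replicates 3 and 4 and ACSS2 KO replicates 1 and 4 was left out (log2 fold change 0.48 to 0.52, adjusted p = 0.061 to 0.087). With a correction for transcript length, DKO1 against WT was 0.52 (adjusted p = 5.8e-06).

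Decr2, the peroxisomal dienoyl-CoA reductase, was highest in ACSS2 KO. Its values were 337, 317, 371 and 320.1 in WT, 418, 361, 427 and 401 in ACLY KO, 459, 528 and 497 in ACSS2 KO and 340.3, 397 and 438 in DKO1, and ACSS2 KO lay above the other 3 genotypes. It rose by 0.55 ± 0.10 (adjusted p = 0.00098) in ACSS2 KO and 0.25 ± 0.09 (adjusted p = 0.033) in ACLY KO, the latter lost when any 1 of WT replicates 1, 2 and 4 and ACLY KO replicates 1, 3 and 4 was left out (log2 fold change 0.22 to 0.26, adjusted p = 0.061 to 0.092), and DKO1 was at 0.21 ± 0.10 (adjusted p = 0.079) against WT.

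Pecr, the trans-2-enoyl-CoA reductase, works in chain elongation but was counted with the oxidation enzymes. It was lower in ACLY KO. It had 168, 161, 144 and 132 in WT, 93.0, 86.3, 82.0 and 99.2 in ACLY KO, 132, 113 and 145 in ACSS2 KO and 95.6, 136 and 165 in DKO1, so that ACLY KO lay below WT and ACSS2 KO while DKO1 spread across them. The log2 fold change was -0.74 ± 0.15 (adjusted p = 0.0013) in ACLY KO, -0.22 ± 0.16 (adjusted p = 0.39) in ACSS2 KO and -0.22 ± 0.16 (adjusted p = 0.27) in DKO1. DKO1 exceeded ACLY KO by 0.52 ± 0.16 (adjusted p = 0.033), a call lost when any 1 of ACLY KO replicates 1, 2 and 3 and DKO1 replicates 3 and 4 was left out (log2 fold change 0.34 to 0.53, adjusted p = 0.057 to 0.12).

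The nudix enzymes, which cut CoA and its esters and so set the CoA content of the organelle, went different ways. Nudt7, at chr8:114133557-114154739, had 216, 231, 159 and 169.7 in WT, 185, 170.3, 172 and 175 in ACLY KO, 282, 234 and 246 in ACSS2 KO and 96.4, 93.0 and 142 in DKO1. All DKO1 libraries lay below the other 11, and ACSS2 KO lay above them. Nudt7 was the 1 tested gene of the 35 that fell in DKO1 against WT, at -0.82 ± 0.16 (adjusted p = 0.00077), or 0.568-fold. It was also lower than in ACLY KO at -0.69 ± 0.16 (adjusted p = 0.0064) and than in ACSS2 KO at -1.22 ± 0.17 (adjusted p = 5.3e-05), and against ACLY KO it was -0.88 (adjusted p = 0.00037) without DKO1 replicate 4. ACLY KO and ACSS2 KO against WT gave -0.13 ± 0.15 (adjusted p = 0.52) and 0.40 ± 0.16 (adjusted p = 0.087).

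Nudt19 had 418, 598, 403 and 382 in WT, 609, 714, 699 and 806 in ACLY KO, 498, 448 and 462 in ACSS2 KO and 807, 769.8 and 1598 in DKO1. ACLY KO and DKO1 lay above WT and ACSS2 KO, and DKO1 replicate 4 had a value about that of the other DKO1 libraries added together. It rose by 0.67 ± 0.21 (adjusted p = 0.017) in ACLY KO and 1.17 ± 0.22 (adjusted p = 0.00065) in DKO1, and by 0.83 (adjusted p = 0.00038) in DKO1 without replicate 4. The ACLY KO call was lost when any 1 of WT replicate 4 and ACLY KO replicate 4 was left out (log2 fold change 0.60 to 0.60, adjusted p = 0.05 to 0.051). An antisense gene shares 40.8% of the exon bases of Nudt19. Nudt12, the family member that acts on NADH, ranged over 190.0 to 286 in WT, 251 to 290.2 in ACLY KO, 263 to 311 in ACSS2 KO and 180.5 to 303 in DKO1, with 0.09 ± 0.18 (adjusted p = 0.69) in DKO1 against WT.

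Catalase (Cat), which destroys the hydrogen peroxide that the oxidases release, had 5240.3, 4452, 5421 and 5246 in WT, 5080.4, 4844, 5064 and 4653 in ACLY KO, 5367, 5227 and 5477 in ACSS2 KO and 7257, 7092 and 5289.5 in DKO1. DKO1 replicates 1 and 3 were the 2 highest libraries and replicate 4 lay within WT. Cat was higher in DKO1 than in WT by 0.35 ± 0.10 (adjusted p = 0.011), beside a chromosome 2 median of 0.28, and than in ACLY KO by 0.40 ± 0.10 (adjusted p = 0.011). The call against WT was lost when any 1 of DKO1 replicates 1 and 3 was left out (log2 fold change 0.27 to 0.29, adjusted p = 0.051 to 0.052) and stood at 0.44 (adjusted p = 2.6e-07) without the 4 libraries that stand apart. With a correction for transcript length it was 0.30 (adjusted p = 0.057) and in a fit of DKO1 and WT alone 0.35 (adjusted p = 0.08). The single knockouts were at -0.05 ± 0.10 (adjusted p = 0.71) and 0.08 ± 0.10 (adjusted p = 0.65).

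Of the ABCD transporters, Abcd3 alone passed the test. Abcd3, the half-transporter for branched acyl-CoAs and bile acid intermediates, lies at chr3:121758774-121815302 and had 2981, 2661, 3084 and 2955 in WT, 6397, 6298, 6643 and 5879 in ACLY KO, 2869, 2780.2 and 2965 in ACSS2 KO and 6276, 6092 and 4296 in DKO1. ACLY KO and DKO1 lay above WT and ACSS2 KO with a wide gap, and DKO1 replicate 4 was the lowest of the raised libraries. It rose by 1.11 ± 0.10 (adjusted p = 1.4e-06) in ACLY KO and 0.91 ± 0.11 (adjusted p = 1.6e-05) in DKO1, 2.16- and 1.88-fold, while ACSS2 KO was at -0.02 ± 0.11 (adjusted p = 0.92), beside a chromosome 3 median of -0.23. DKO1 against ACLY KO gave -0.20 ± 0.11 (adjusted p = 0.2). Abcd4, which exports cobalamin from lysosomes, had 197, 209, 175 and 187 in WT, 189, 185, 185 and 210.2 in ACLY KO, 165, 184 and 207 in ACSS2 KO and 160.0, 127 and 197 in DKO1. Its groups overlapped, and it stood at 0.01 ± 0.12 (adjusted p = 0.98), -0.05 ± 0.13 (adjusted p = 0.84) and -0.27 ± 0.13 (adjusted p = 0.1) in ACLY KO, ACSS2 KO and DKO1, and at -0.42 (adjusted p = 0.0076) in DKO1 without replicate 4. Abcd2, a transporter of very long and polyunsaturated acyl-CoAs, had at most 4.29 normalized counts in any library.

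Slc25a17, which carries CoA and other cofactors across the peroxisomal membrane, had 1772, 1826, 1826 and 1809 in WT, 2042, 2159.6, 2068 and 2088 in ACLY KO, 2059, 1940.1 and 2031 in ACSS2 KO and 1603, 1737 and 1916 in DKO1. The values of ACLY KO lay above WT and DKO1. It rose in ACLY KO by 0.21 ± 0.06 (adjusted p = 0.0084), where the chromosome 15 median was 0.24, and DKO1 was lower than ACLY KO at -0.26 ± 0.06 (adjusted p = 0.0076) and at -0.05 ± 0.06 (adjusted p = 0.52) against WT.

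**Figure D4:**
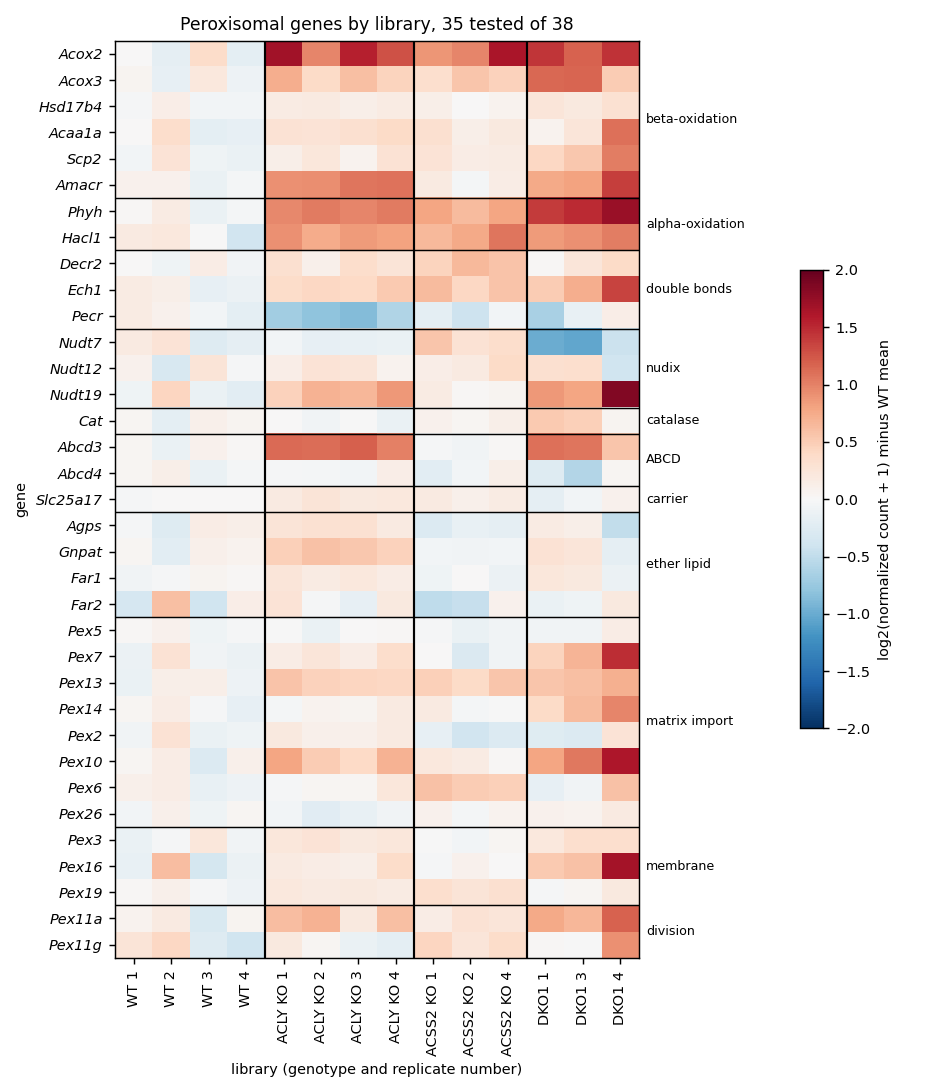
Each tested gene (rows, ordered by role) in each of the 14 libraries (columns), colored by log2(normalized count + 1) minus the WT mean. Red rows run across all knockouts for Acox2, Phyh and Hacl1, and the DKO1 replicate 4 column is redder than the other DKO1 columns for Nudt19, Pex7, Pex10 and Pex16.

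The ether lipid enzymes did not follow the oxidation enzymes. Gnpat, the acyltransferase that commits dihydroxyacetone phosphate to ether lipids, had 3242, 2742, 3402 and 3341 in WT, 4410.2, 4741, 4594 and 4386 in ACLY KO, 3043, 3005 and 3059 in ACSS2 KO and 3862, 3742 and 2809 in DKO1. ACLY KO lay above all other libraries. It rose by 0.51 ± 0.10 (adjusted p = 0.00061) in ACLY KO and DKO1 was lower than ACLY KO at -0.40 ± 0.10 (adjusted p = 0.013), or -0.25 (adjusted p = 0.022) without DKO1 replicate 4, while DKO1 against WT gave 0.12 ± 0.10 (adjusted p = 0.36), or 0.26 (adjusted p = 0.009) when DKO1 replicate 4 was left out. Agps, which makes the ether bond, had 4708, 4009, 5314 and 5157 in WT, 5729, 5873, 5903 and 5414 in ACLY KO, 3944, 4316 and 4223 in ACSS2 KO and 5328, 5189.6 and 3386 in DKO1. It passed no test, with 0.26 ± 0.13 (adjusted p = 0.11) in ACLY KO, where no library overlapped WT, and -0.07 ± 0.14 (adjusted p = 0.69) in DKO1, beside a chromosome 2 median of 0.28.

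Far1, the main fatty acyl-CoA reductase supplying the alcohol, ranged over 3472 to 3799.8 in WT, 4053 to 4301 in ACLY KO, 3356 to 3667 in ACSS2 KO and 3347 to 4239 in DKO1. It was higher in ACLY KO by 0.19 ± 0.07 (adjusted p = 0.043), a call lost when any 1 of WT replicates 1, 2 and 4, ACLY KO replicates 1, 2, 3 and 4 and ACSS2 KO replicates 1, 2 and 4 was left out (log2 fold change 0.17 to 0.21, adjusted p = 0.051 to 0.11). In DKO1 it was at 0.10 ± 0.08 (adjusted p = 0.3), and at 0.21 (adjusted p = 0.0048) without replicate 4. Its paralog Far2 was at 31.3 to 63.1 in WT and 37.7 to 47.4 in DKO1, with -0.01 ± 0.24 (adjusted p = 0.97) beside a chromosome 6 median of -0.20.

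Among the peroxins of matrix protein import, 4 of 8 rose in DKO1 against WT, beside 27.9% of all genes. Pex14, the docking protein at the import pore, at chr4:148960535-149099876, had 632, 679, 603 and 544 in WT, 593, 642, 636 and 692 in ACLY KO, 692, 593 and 607 in ACSS2 KO and 802, 947 and 1199.7 in DKO1. The DKO1 libraries lay above the other 11, and WT, ACLY KO and ACSS2 KO overlapped one another. It rose in DKO1 by 0.66 ± 0.12 (adjusted p = 0.00049) against WT, 0.60 ± 0.12 (adjusted p = 0.0029) against ACLY KO and 0.62 ± 0.13 (adjusted p = 0.0013) against ACSS2 KO, and against ACLY KO it was 0.45 (adjusted p = 0.0047) without DKO1 replicate 4 and 0.62 (adjusted p = 0.0021) after correction for transcript length. An antisense gene shares 31.4% of its exon bases, and the use of strand in counting is not given in the sources used here. The single knockouts stood at 0.06 ± 0.11 (adjusted p = 0.69) and 0.04 ± 0.12 (adjusted p = 0.86).

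Pex13, the docking partner of Pex14, was raised in every knockout. It had 639, 755, 762 and 649 in WT, 1041, 964, 939.8 and 936 in ACLY KO, 975, 910.0 and 1025 in ACSS2 KO and 1029, 1061 and 1145 in DKO1, with WT below all knockout libraries and the knockouts close together. The log2 fold change was 0.47 ± 0.07 (adjusted p = 0.00016) in ACLY KO, 0.47 ± 0.08 (adjusted p = 0.00081) in ACSS2 KO and 0.62 ± 0.08 (adjusted p = 2.6e-05) in DKO1, where the chromosome 11 median was 0.22. DKO1 against ACLY KO gave 0.15 ± 0.08 (adjusted p = 0.19).

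Pex10, a RING-type ubiquitin ligase that lets import receptors recycle, had 112, 119.7, 89.4 and 116 in WT, 187, 154, 144 and 177 in ACLY KO, 126, 121 and 109.9 in ACSS2 KO and 187, 226 and 335 in DKO1. DKO1 and ACLY KO lay above WT and ACSS2 KO, and DKO1 replicate 1 lay just under the highest ACLY KO library. It rose by 1.15 ± 0.18 (adjusted p = 0.0001) in DKO1 and 0.60 ± 0.16 (adjusted p = 0.0081) in ACLY KO, with 0.13 ± 0.18 (adjusted p = 0.66) in ACSS2 KO. The difference of DKO1 from ACLY KO, 0.55 ± 0.18 (adjusted p = 0.033), was lost when any 1 of ACLY KO replicates 2 and 3 and DKO1 replicate 4 was left out (log2 fold change 0.32 to 0.52, adjusted p = 0.079 to 0.11).

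Pex7, the receptor for enzymes with the second peroxisomal targeting signal, among them Phyh, Agps and the thiolase Acaa1a, had 466, 621, 483 and 469 in WT, 563, 598, 559 and 649 in ACLY KO, 507, 413 and 484 in ACSS2 KO and 692, 811 and 1414 in DKO1. DKO1 was above all other libraries, and its replicate 4 exceeded the others by far. It rose in DKO1 by 0.87 ± 0.20 (adjusted p = 0.002) against WT, or 0.57 (adjusted p = 0.0015) without replicate 4. The call against ACLY KO, 0.65 ± 0.20 (adjusted p = 0.026), was lost when any 1 of ACLY KO replicates 1, 2 and 3 and DKO1 replicate 4 was left out (log2 fold change 0.34 to 0.65, adjusted p = 0.053 to 0.062).

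Pex5, the receptor for the main targeting signal, stayed within 1101 to 1238 in WT and 1110.4 to 1302 in DKO1, and its log2 fold changes were -0.03 ± 0.07 (adjusted p = 0.77) in ACLY KO, -0.08 ± 0.07 (adjusted p = 0.46) in ACSS2 KO and 0.00 ± 0.07 (adjusted p = 0.97) in DKO1, beside a chromosome 6 median of -0.20 in the last. Pex2, another RING ligase, ranged over 1398 to 1873 in WT and 1273 to 1854 in DKO1. It passed no test with all libraries, at -0.08 ± 0.13 (adjusted p = 0.62) in DKO1 against WT, but was at -0.25 (adjusted p = 0.042) without DKO1 replicate 4. Pex6, an ATPase that pulls receptors out of the membrane, had 699, 716, 586 and 604 in WT, 637, 669, 670.0 and 758 in ACLY KO, 969.9, 926 and 901 in ACSS2 KO and 577, 615 and 976 in DKO1. It was higher in ACSS2 KO by 0.52 ± 0.15 (adjusted p = 0.021), a call lost when any 1 of WT replicates 3 and 4 and ACSS2 KO replicates 1, 2 and 4 was left out (log2 fold change 0.47 to 0.55, adjusted p = 0.054 to 0.073), and stood at 0.11 ± 0.15 (adjusted p = 0.54) in DKO1. Pex26, the anchor of that ATPase, ranged over 463 to 528 in WT, 421 to 474 in ACLY KO and 519 to 555 in DKO1. DKO1 exceeded ACLY KO by 0.24 ± 0.07 (adjusted p = 0.024), lost when any 1 of ACLY KO replicates 2 and 3 and DKO1 replicate 4 was left out (log2 fold change 0.20 to 0.23, adjusted p = 0.052 to 0.073).

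The peroxins of membrane assembly changed by less, apart from Pex16. Pex3, the membrane anchor for Pex19, ranged over 415 to 534 in WT, 526 to 552 in ACLY KO, 438 to 468 in ACSS2 KO and 531 to 578 in DKO1. WT replicate 3 overlapped ACLY KO and DKO1, and the other WT libraries lay below both. Pex3 was higher in ACLY KO by 0.23 ± 0.07 (adjusted p = 0.021) and in DKO1 by 0.29 ± 0.08 (adjusted p = 0.0076), which was 0.29 (adjusted p = 0.07) in a fit of DKO1 and WT alone, and the ACLY KO call was lost when any 1 of WT replicates 1 and 4 and ACLY KO replicate 2 was left out (log2 fold change 0.19 to 0.22, adjusted p = 0.054 to 0.068). Pex19, the chaperone of membrane proteins, had 1781, 1882, 1714 and 1634 in WT, 2034, 1982, 2012 and 1967 in ACLY KO, 2208, 2089.9 and 2184 in ACSS2 KO and 1724, 1795 and 2003 in DKO1. The values of both single knockouts lay above WT, and DKO1 overlapped WT. It rose by 0.19 ± 0.06 (adjusted p = 0.019) in ACLY KO and 0.30 ± 0.07 (adjusted p = 0.0038) in ACSS2 KO, and DKO1 was at 0.07 ± 0.07 (adjusted p = 0.39). The ACLY KO call was lost without WT replicate 4 (log2 fold change 0.16, adjusted p = 0.062).

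Pex16, which brings Pex3 to the membrane, had 190.2, 323, 166 and 195 in WT, 239, 233, 229 and 272 in ACLY KO, 208, 224 and 211 in ACSS2 KO and 304, 317 and 672 in DKO1. WT replicate 2 and DKO1 replicate 4, both rich in short transcripts, were the highest of their groups, and WT and DKO1 overlapped. Pex16 rose in DKO1 by 0.92 ± 0.26 (adjusted p = 0.0086) against WT, with a chromosome 2 median of 0.28, by 0.55 (adjusted p = 0.025) without DKO1 replicate 4, by 0.76 (adjusted p = 5.9e-06) without the 4 libraries that stand apart and by 0.62 (adjusted p = 0.0015) after correction for transcript length. In a fit of DKO1 and WT alone the call was lost, with 0.92 (adjusted p = 0.062). Against ACLY KO it was at 0.72 ± 0.26 (adjusted p = 0.055).

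For division of the organelle, Pex11a had 84.6, 90.8, 65.0 and 83.8 in WT, 124, 131, 92.5 and 122 in ACLY KO, 89.4, 98.8 and 95.3 in ACSS2 KO and 137, 128 and 184 in DKO1. ACLY KO and DKO1 lay above WT, and the lowest ACLY KO library fell among those of ACSS2 KO. It rose by 0.53 ± 0.15 (adjusted p = 0.0092) in ACLY KO and 0.87 ± 0.16 (adjusted p = 0.00046) in DKO1, and DKO1 against ACLY KO gave 0.34 ± 0.16 (adjusted p = 0.14). Pex11g ranged over 72.4 to 128 in WT and 95.3 to 182 in DKO1 and passed no test, with 0.31 ± 0.24 (adjusted p = 0.28) in DKO1.

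DKO1, a single-cell clone, was also compared with ACLY KO, a bulk population that likewise lacked ACLY. Clone and ACSS2 loss cannot be told apart there. In this comparison 8 of the 35 genes were higher and 3 were lower, beside 14.3% and 13.6% of all genes. The higher genes were 3 counted as oxidation enzymes (Phyh, Scp2 and Pecr, the last of chain elongation), Cat and 4 peroxins (Pex7, Pex10, Pex14 and Pex26). The lower ones were Nudt7, Slc25a17 and Gnpat. Medians were 0.15 for the oxidation enzymes, 0.24 for the peroxins and -0.21 for the ether lipid enzymes, with -0.00520 over all genes. Without DKO1 replicate 4, 5 genes were higher and 6 lower, beside 2052 higher and 1941 lower of all 12711 genes. Of the peroxins, Pex14 was then higher while Pex2 and Pex19 were lower, with a peroxin median of 0.11. The oxidation enzyme median came to 0.30 without DKO1 replicate 1 and to 0.061 when DKO1 replicate 4 was left out. The total came to 7 without ACLY KO replicate 2 and to 7 without ACLY KO replicate 3, and in the fit of these genotypes alone to 3, which were Phyh, Nudt7 and Pex14. That fit called 1132 of all genes higher and 1036 lower, in place of 1815 and 1735.

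Against ACSS2 KO, DKO1 had 13 genes higher and 5 lower, beside 25.9% and 27.8% of all genes. Among the higher genes, the log2 differences of Amacr, Abcd3 and Nudt19, which were not called in ACSS2 KO against WT, were 0.89 ± 0.14 (adjusted p = 0.00016), 0.93 ± 0.12 (adjusted p = 2.3e-05) and 1.09 ± 0.24 (adjusted p = 0.0019), with a chromosome 3 median of 0.24 for Abcd3. Pex10 and Pex7 followed at 1.02 ± 0.19 (adjusted p = 0.0005) and 0.99 ± 0.21 (adjusted p = 0.0014). The lower genes were Nudt7, Decr2, Pex6, Slc25a17 and Pex19, and the call of Pex6 was lost in 12 of the 14 fits without 1 library.

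ACSS2 KO and DKO1 were single-cell clones, so an interaction of ACLY and ACSS2 loss cannot be told apart from clone. The interaction tested was the DKO1 minus ACLY KO difference less the ACSS2 KO minus WT difference. It was above 0 for 2 and below 0 for 6 of the 35 genes, beside 12.0% and 15.1% of all genes. Acox2 gave -1.18 ± 0.30 (adjusted p = 0.011), Hacl1 -0.73 ± 0.20 (adjusted p = 0.019) and Decr2 -0.60 ± 0.14 (adjusted p = 0.0065), and all 3 rose in ACSS2 KO against WT and were not called in DKO1 against ACLY KO. For Acox2 and Hacl1 the chromosome 14 median was -0.23, and Hacl1 lost its call without ACSS2 KO replicate 4 (log2 fold change -0.60, adjusted p = 0.057). Nudt7 gave -1.09 ± 0.23 (adjusted p = 0.0032), Slc25a17 -0.41 ± 0.09 (adjusted p = 0.0037) and Pex19 -0.42 ± 0.09 (adjusted p = 0.0042), the last beside a chromosome 1 median of -0.21. The positive values were 0.73 ± 0.23 (adjusted p = 0.033) for Pecr, also on chromosome 1, and 0.56 ± 0.17 (adjusted p = 0.029) for Pex14, and these calls were lost in 9 and 6 of the 14 fits that left out 1 library.

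Other genes from pathway lists, likewise chosen with earlier results of these data known, were counted in the same way. Of 30 further oxidation-related genes, 15 were tested, and 10 were higher in DKO1 against WT with none of the 15 lower (median 0.43), beside 27.9% higher and 28.1% lower over all tested genes. Idh1, an NADPH source, Crot, which makes carnitine esters of the shortened chains, and Acbd5, an acyl-CoA binding tether, had the smallest adjusted p, with 0.64 ± 0.08 (adjusted p = 2.2e-05), 0.40 ± 0.07 (adjusted p = 0.00032) and 0.65 ± 0.11 (adjusted p = 0.00032). In ACLY KO, 3 were higher and 2 lower, beside 23.8% and 24.7% of all genes, and in ACSS2 KO 1 was higher and 0 lower, beside 15.1% and 11.0%. Of 13 genes listed as further peroxins or as membrane or division genes, 8 rose and 0 fell in DKO1 against WT (median 0.29). The listing does not place every product, Mpv17 among them, in the peroxisome. The 8 included Mpv17 at 0.81 ± 0.11 (adjusted p = 5.7e-05) and Tmem135 at 0.32 ± 0.07 (adjusted p = 0.0012). In ACLY KO 6 rose and 2 fell, and in ACSS2 KO 3 rose and 1 fell, to be read against the same shares of all genes.

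The regulators commonly tied to these genes did not all move one way. Ppargc1a, the coactivator PGC-1 alpha, had 202 to 217 in WT, 652 to 774 in ACLY KO, 694 to 758 in ACSS2 KO and 337 to 556 in DKO1, and was higher than WT in DKO1 by 1.16 ± 0.14 (adjusted p = 1.7e-05). Ppara rose in DKO1 by 1.12 ± 0.30 (adjusted p = 0.0062) from low levels of 15.0 to 30.3 in WT, while Pparg was lower at -0.65 ± 0.23 (adjusted p = 0.028). Of 20 PPAR alpha targets outside the peroxisome, 15 were tested, 7 rose and 5 fell in DKO1 against WT (median 0.13), beside 27.9% higher and 28.1% lower over all tested genes. They included Angptl4, an inhibitor of lipoprotein lipase, at -2.23 ± 0.14 (adjusted p = 3.9e-08), the pantetheinase Vnn1 at 0.96 ± 0.06 (adjusted p = 7.2e-08) and the mitochondrial Cpt2 at 0.78 ± 0.06 (adjusted p = 3.8e-07).

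The genes also differed widely in level. Per kilobase of the longest annotated transcript, Cat was highest in WT at 1948 normalized counts, followed by Gnpat at 1066, Slc25a17 at 1049 and Abcd3 at 837. The enzymes with the larger folds had lower levels, with Phyh at 288, Amacr at 106, Acox3 at 61.5, Acox2 at 23.7 and Hacl1 at 23.5. Hsd17b4 was at 755 and Scp2 at 564. Among the peroxins Pex2 was at 755, Pex19 at 616, Pex5 at 372 and Pex14 at 161, while Pex10 was at 39.1 and Pex11a at 36.2.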

How the data were processed

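Poly(A) RNA-seq of 14 libraries (4 WT, 4 ACLY KO, 3 ACSS2 KO and 3 DKO1) was analyzed from 1 deposited table. Per the study's methods, the authors used STAR with the GRCm38 genome for alignment and normalized counts per gene for depth with DESeq2 (1.0.1 in the submitters' processing notes). The counter and its annotation are not given in the sources used here. The deposited values are a normalized signal per gene and not whole reads, so no count model was used and the depth is known only roughly. Taking the commonest value under 3 in a library as the worth of 1 read implies 19164067 to 33522192 reads.

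Genes with a mean of at least 10 were tested with limma 3.58.1 (R 4.3.3, moderated test with an intensity trend) on log2(value + 1), with all 14 libraries in 1 fit, 1 coefficient per genotype and Benjamini-Hochberg adjustment over 12711 genes. The fit was tested on simulated data. Symbols with GENCODE vM21 lengths (12577 tested genes) gave the transcript length correction, a spline with 5 degrees of freedom. Alternatives were constants of 0.5 and 5, no filter, a minimum mean of 50, quantile normalization, equal totals, 2-group fits, a replicate block, thresholds of an adjusted p under 0.01 or a log2 fold change over 0.5, and leaving out each library or the 4 that stand apart.

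The genes and lists were chosen with earlier results of these data known. Every one of the 38 genes was named. Values per library were given for genes called in DKO1 against WT or ACLY KO with a log2 fold change over 0.5 in size and for others that the role groups turn on. From each further list, up to 3 genes with the smallest adjusted p in DKO1 against WT were named, and some genes are not reported here. The median of all genes on a chromosome was printed where it was over 0.2 in size. Groups came from the sample labels. 26 gene names that read as dates were left as deposited.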

Additional observations from a re-analysis of the deposited data

Results flagged for a closer look

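Among 70 groups of 4 libraries, 5 held a value farther from the others than Dixon's 95% critical value allows, and chance flags about 1 in 20 groups. In WT replicate 2 these were Hsd17b4 at 2218, Nudt19 at 598, Pex7 at 621 and Pex2 at 1873 normalized counts, each the highest of the WT libraries, and in ACLY KO replicate 4 it was Abcd4 at 210.2. WT replicate 2 and ACLY KO replicate 4 are among the 4 libraries with relatively more signal from short transcripts. The part of that property in these values was not tested.

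In limma's interaction test with Benjamini-Hochberg adjustment, 8 of the 35 tested genes were called. Of all genes, 12.0% were called above 0 and 15.1% below 0. ACSS2 KO and DKO1 were single-cell clones, so clone and ACSS2 loss cannot be told apart. The interaction, on the log2 scale and as the change in ACLY-deficient minus that in ACLY-proficient cells, was -1.18 for Acox2, -0.73 for Hacl1, -0.60 for Decr2, -1.09 for Nudt7, -0.41 for Slc25a17 and -0.42 for Pex19. It was 0.73 for Pecr and 0.56 for Pex14, and these calls were lost in 9 and 6 of the 14 fits that left out 1 library.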

How the results depend on the processing

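No called result of the 38 genes reversed its direction under any alternative run. Of 84 called gene results, 84 remained called with constants of 0.5 or 5, 81 without the 4 libraries that stand apart, 78 with the transcript length correction, 73 with the replicate block, 79 each with equal totals, no filter or quantile normalization, 56 of the 76 that could be fitted with only the 2 groups compared, which ended the DKO1 against WT calls of Cat, Hsd17b4, Pex3 and Pex16, and 73 to 79 when 1 library was left out. The number of genes called in ACLY KO against WT was 19, and 12 at an adjusted p under 0.01, 11 with a log2 fold change over 0.5 and 12 to 21 when 1 library was left out (12 without WT replicate 4). In ACSS2 KO against WT 9 became 17 without the 4 libraries, where calls over all genes also rose, to 3052 higher and 3055 lower. In DKO1 against ACLY KO 11 became 3 with the 2 groups alone, 4 at the stricter p, 6 with the fold limit and 7 to 14 when 1 library was left out. In DKO1 against ACSS2 KO 18 became 10 under each of the first 3 of these. The 8 interaction calls became 5 with the replicate block, 4 at the stricter p and 14 without the 4 libraries. In the last setting, interaction calls over all 12711 genes went from 1524 to 2716 above 0 and from 1918 to 2833 below 0. Same-numbered libraries correlated between -0.431 and 0.447 in their deviations, 5 of 18 pairs over 0.1 and 6 of 14 libraries best with their own number, so the numbers were not taken as pairs. The oxidation enzyme median was 0.30 with quantile normalization in ACSS2 KO against WT. In DKO1 against WT it was 0.61 with the length correction, 0.66 without the 4 libraries and 0.61 to 0.92 when 1 was left out. It was 0.061 to 0.30 when 1 library was left out in DKO1 against ACLY KO and 0.12 without the 4 in DKO1 against ACSS2 KO. For the interaction it was -0.26 with equal totals, -0.32 without the 4 libraries and -0.31 to -0.002 when 1 was left out. The peroxin median was 0.27 to 0.47 in DKO1 against WT when 1 library was left out, 0.091 in DKO1 against ACLY KO without the 4 libraries and -0.039 for the interaction with equal totals. The cause was not tested. No limit set by depth could be given because the values carry no read counts.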
